A study of Arabidopsis thaliana with 40 samples.

Results

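COR15A, COR15B, KIN1, KIN2, RD29A, COR47, ERD10, ERD14 and LTI30 are 9 genes of Arabidopsis thaliana, the thale cress, whose transcripts accumulate in leaves during cold acclimation. They were chosen by locus identifier as the COR15 and KIN pairs, RD29A and the cold dehydrins. They are 9 of the 27416 genes in the deposited count table, and all 9 passed the filter on low counts that left 16579 genes to test. Shoot RNA was counted by Lasy-Seq, in which barcoded samples are pooled early and read at their 3′ ends, in 40 libraries or 5 groups of 8. The first group was sampled at 14 days of age, before any pretreatment, and is called the start. The water plants and the ethanol plants were sampled after their pots had stood for 6 days in water or in 20 mM ethanol. The frozen water plants and the frozen ethanol plants had received the same pretreatments and were then held at -4 °C overnight in a rotating incubator. The labels of both frozen groups give a time of 2 h, which may be the length of freezing or of the stay in the growth room that followed. All groups share the species, the shoot as tissue and growth in soil pots at 22 °C. The sources used here name no accession, genotype or hour of harvest, nor whether each replicate was a plant or pot of its own. The p-values therefore measure the spread between these samples, which may be technical.

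The proteins encoded by these genes are hydrophilic and collect in cells that lose water, as cells do when ice forms outside them. COR15A and COR15B enter the chloroplast stroma and protect membranes, and the dehydrins COR47, ERD10, ERD14 and LTI30 bind membranes and other proteins in the cytosol. In the cold, CBF transcription factors bind a short element named CRT/DRE in the promoters of these genes, and bZIP factors of the ABF family bind the ABA-responsive element (ABRE) when the hormone abscisic acid (ABA) rises. Clock proteins also set the hour at which cold induces many of them.

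The sequences before the start codon show which of these elements the 9 genes carry and how alike they are within a pair. The window read was the 1000 bases before the annotated start codon in RefSeq's TAIR10.1 assembly, which includes the 5′ UTR. Each line gives 25 bases in the direction of the gene, with the CRT/DRE core in capitals.
COR15A (chr2:17712218-17712242, minus strand): aatttcatggCCGACctgctttttt
COR15B (chr2:17710124-17710148, minus strand): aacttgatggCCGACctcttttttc
KIN1 (chr5:5209804-5209828, plus strand): taaatagctaCCGACataaggcaaa
KIN2 (chr5:5211771-5211795, plus strand): taaaaagctaCCGACataaggcaaa
COR47 (chr1:7085918-7085942, minus strand): tattcatctaCCGACttcaagaaat
ERD10 (chr1:7089371-7089395, minus strand): tattcatccaCCGACcgaccgacgt
LTI30 (chr3:18940555-18940579, plus strand): cactactacaCCGACgtcttacttg
RD29A (chr5:21240674-21240698, plus strand): agatatactaCCGACatgagttcca
The core began 266 bases before the start codon in COR15A and 265 in COR15B, 178 in KIN1 and 185 in KIN2, and 268 in COR47 and 278 in ERD10. In ERD10 the core occurred 3 times in a row, each copy overlapping the next by 1 base. RD29A held 4 copies, the first 3 of them at 352, 302 and 245 bases. ERD14 had a single copy, at 899 bases, and it is not printed.

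The letters CCGAC were found on either strand in the windows of 9 of the 9 genes. They were found in 39.4% of the 27443 windows of annotated protein-coding genes of the nuclear chromosomes. At least 2 copies were present in 6 of the 9, against 11.4% of windows. The ABRE core, ACGTG, was present in 9 of the 9, against 54.3% of windows, and a CACGTG counts as a match on each strand. AAATATCT, a shortened form of the evening element that clock proteins bind, was present in 6 of the 9, against 15.3% of windows. The genes without it in this window were RD29A, COR47 and ERD14. Of the 20 CRT/DRE cores, 9 lay inside the annotated gene itself, between its annotated start and the start codon. The core 825 bases before the COR15B start codon (17710684 to 17710708) lies inside the annotated COR15A gene. A match is a run of letters and does not show that a protein binds there.

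**Figure D1:**
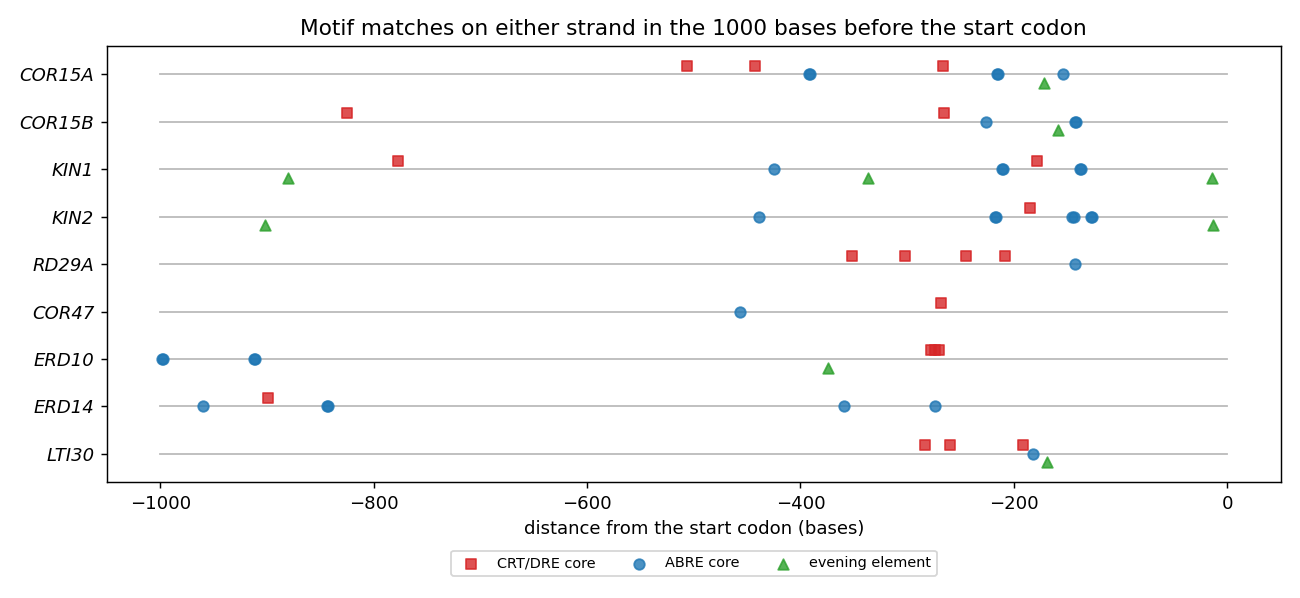
Positions of the CRT/DRE core (red squares), the ABRE core (blue circles) and the shortened evening element AAATATCT (green triangles) on either strand of the 1000 bases before the start codon, in bases, for each of the 9 genes. All 9 lines carry at least 1 square and 1 circle, RD29A carries 4 squares, and the squares of ERD14 and COR15B include ones at 899 and 825 bases.

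Of the 9 genes, 6 form neighbouring pairs, all members of a pair on the same strand. COR15A (AT2G42540, chromosome 2, 17710441 to 17712330, minus strand) and COR15B (AT2G42530, 17708593 to 17710433) lie 7 bases apart in the annotation, and their coding sequences are 82.6% identical. KIN1 (AT5G15960, chromosome 5, 5209717 to 5210826, plus strand) and KIN2 (AT5G15970, 5211719 to 5212743) are 95.02% identical and encode 66 amino acids each. COR47 (AT1G20440, chromosome 1, 7084409 to 7086873, minus strand) and ERD10 (AT1G20450, 7087903 to 7089606) are 73.5% identical. RD29A (AT5G52310) lies at 21240717 to 21243644 on chromosome 5, ERD14 (AT1G76180) at 28586663 to 28587931 on chromosome 1 and LTI30 (AT3G50970) at 18940643 to 18941611 on chromosome 3. No stretch of 50 bases was shared between the transcripts of COR15A and COR15B or of COR47 and ERD10. KIN1 and KIN2 share 10 such stretches, 1.43% of those of KIN2. The sources used here do not say how reads that fit both copies were counted, so KIN1 in particular is uncertain.

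The libraries held 2098593 to 9211896 counts. Levels are given as CPM, the counts of a gene per 1000000 counts of its library after scaling between libraries, and 3 counts were worth 0.326 to 1.43 CPM. The label of the tissue was checked against marker genes. The 4 markers of green tissue summed to between 54100 and 79360 CPM. The 5 seed markers, which matter here because seeds also store dehydrins, summed to at most 0.921 CPM in any library, and 4 of them were at 0 in all starting libraries and 3 in every other group. The 4 root markers summed to between 11.99 and 126 CPM. In these bulk samples, fewer cells of a type and less RNA per cell cannot be told apart.

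**Figure D2:**
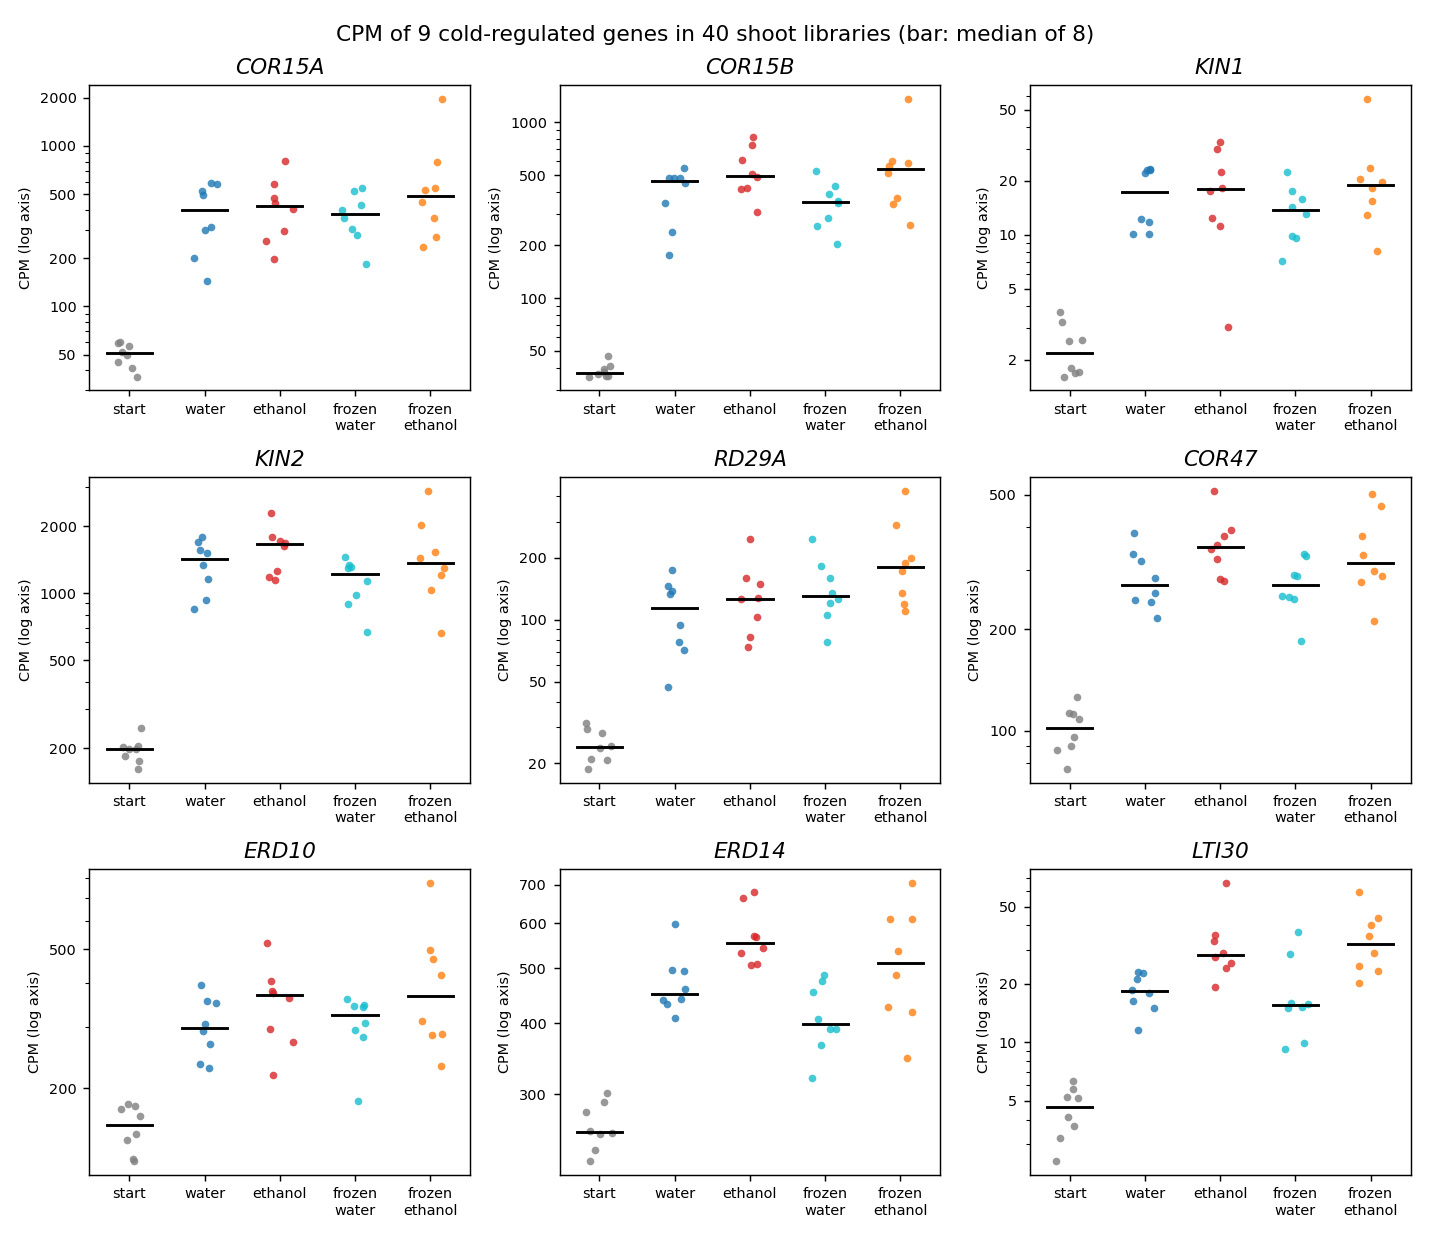
CPM on a log axis for each of the 9 genes in the 40 libraries, in 5 groups of 8, with a bar at the median of each group. The 8 starting libraries lie below the 8 water libraries for 9 of the 9 genes, and 1 frozen ethanol library, replicate 2, is the highest of its group for 9 of the 9.

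All 9 genes rose between the start and the end of 6 days on water. With edgeR's quasi-likelihood test and Benjamini-Hochberg adjustment over all tested genes, 9 of 9 were called higher at an adjusted p under 0.05, where 12% of all tested genes were. The CPM of the groups did not overlap for 9 of the 9, which was so for 4.02% of all genes in that direction. The median log2 fold change was 2.17 over the 9 genes and -0.0096 over all genes. The chloroplast proteins and the KIN pair rose most, the dehydrins ERD10 and ERD14 least.

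COR15A ranged from 36.5 to 59.6 CPM at the start, with a median of 50.9, and from 144 to 588 CPM on water, with a median of 401. COR15B ranged from 35.8 to 47.0 CPM at the start (median 37.6) and from 175 to 548 CPM on water (median 465). Every water library was above every starting library for both genes. The log2 fold changes were 2.98 ± 0.32 (SE) for COR15A (adjusted p = 4.16e-11) and 3.37 ± 0.24 for COR15B (adjusted p = 5.55e-17), with n = 8 in each group here and below. That is 7.86-fold and 10.4-fold.

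KIN2 encodes a small hydrophilic protein like that of its neighbour KIN1. It ranged from 162 to 247 CPM at the start (median 198) and from 852 to 1791 CPM on water (median 1431). KIN1 lay far lower, at 1.61 to 3.68 CPM at the start (median 2.17) and 10.11 to 23.4 CPM on water (median 17.2), and its starting values rest on 7 to 18 counts a library. Both rose by similar factors, with log2 fold changes of 2.79 ± 0.19 for KIN2 (adjusted p = 3.09e-18) and 2.89 ± 0.35 for KIN1 (adjusted p = 2.16e-09). The KIN1 counts were 1.16% of the KIN2 counts at the start and 1.31% on water, as medians of 8 libraries. None of 6 tests of that ratio passed after adjustment (smallest exact permutation p = 0.165). Whether KIN1 reads were counted apart from those of KIN2 was not tested.

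RD29A, whose promoter is the classical reporter of cold, drought and salt, ranged from 18.9 to 31.3 CPM at the start (median 24.0) and from 47.3 to 174 CPM on water (median 114). Its log2 fold change was 2.17 ± 0.25 (adjusted p = 6.08e-10). No starting library reached the lowest water library. RD29B, its tandem neighbour and an ABA-responsive gene, stayed at mean levels of 0.0807 to 0.351 CPM in the 5 groups, under the value of 3 counts in most libraries, and was not tested.

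Among the dehydrins, LTI30 showed the steepest rise. It ranged from 2.45 to 6.33 CPM at the start (median 4.64) and from 11.6 to 23.1 CPM on water (median 18.3), a log2 fold change of 1.95 ± 0.26 (adjusted p = 2.31e-08). COR47 went from 77.2 to 126 CPM (median 102) to 215.98 to 385 CPM (median 269.5), a log2 fold change of 1.496 ± 0.136 (adjusted p = 2.45e-13). Its neighbour ERD10 went from 124 to 181 CPM (median 158) to 228.9 to 394 CPM (median 298), a log2 fold change of 0.97 ± 0.16 (adjusted p = 3.34e-06). ERD14, the highest at the start of the 4 dehydrins of the set, was at most 302 CPM at the start (median 257) and 408 to 598 CPM on water (median 450.4). Its change of 0.84 ± 0.097 on the log2 scale was the smallest of the 9 (adjusted p = 4.87e-10). For these 4 dehydrins too, every water library was above every starting library.

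The ethanol plants were compared with the same starting libraries, so that this comparison shares its controls with the last. Here too 9 of 9 genes were called higher, where 15.4% of all tested genes were, and the groups did not overlap for 8 of the 9 (5.6% of all genes). The log2 fold changes were 3.12 ± 0.32 for COR15A, 3.81 ± 0.25 for COR15B, 3.04 ± 0.35 for KIN1, 3.02 ± 0.19 for KIN2 and 2.46 ± 0.25 for RD29A. For the dehydrins they were 2.79 ± 0.25 for LTI30, 1.83 ± 0.14 for COR47, 1.19 ± 0.16 for ERD10 and 1.12 ± 0.098 for ERD14. The exception to the separation was KIN1, whose lowest ethanol library, replicate 7, had 3.04 CPM from 6 counts.

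**Figure D3:**
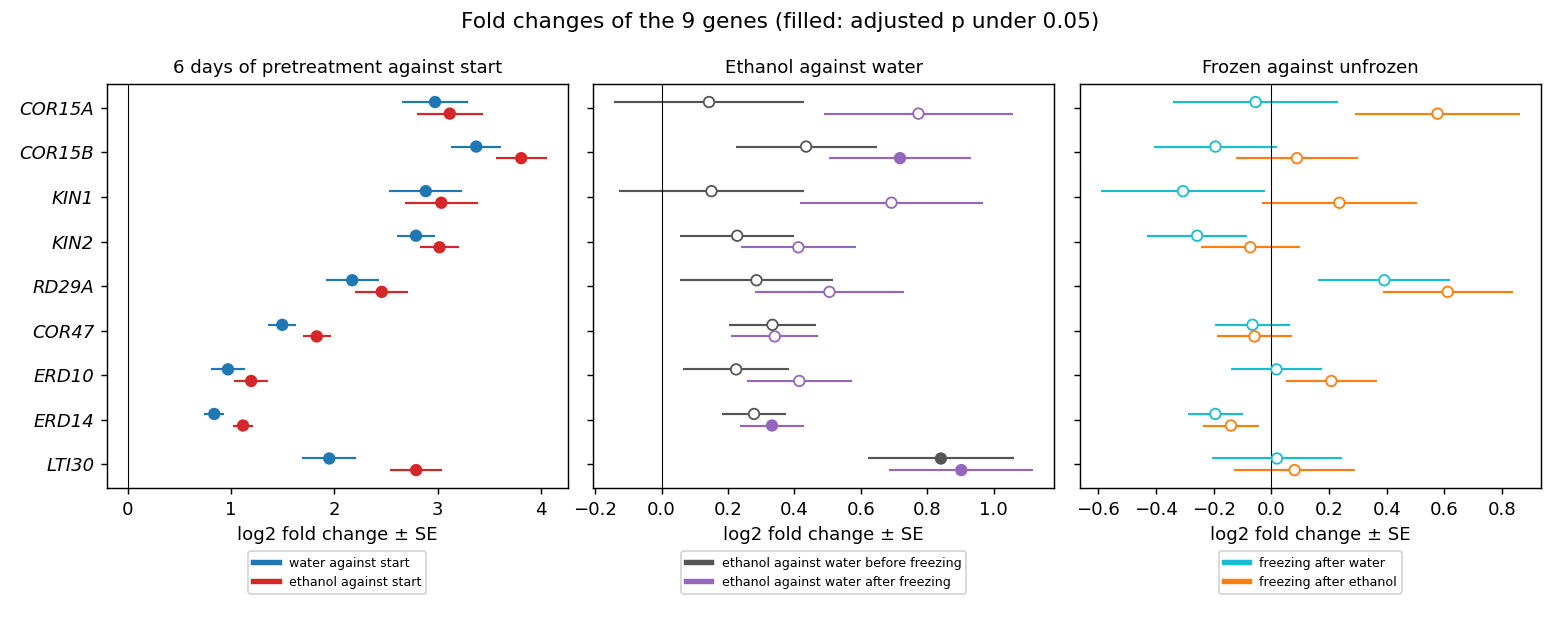
Log2 fold changes with their SE from the quasi-likelihood fit for the 9 genes, in panels with different scales: each pretreatment against the start, ethanol against water, and frozen against unfrozen. Filled points have an adjusted p under 0.05. All 18 points of the left panel are filled, 4 of the middle panel are, at LTI30 in both states and at COR15B and ERD14 after freezing, and none of the right panel is.

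Other genes of the cold pathway were higher on water than at the start as well. Of the 9 listed CBF and DREB2 factors 6 could be tested, and 6 of 6 were called higher. CBF3 rose from 3.21 ± 0.875 to 16.8 ± 7.18 CPM (mean ± SD, n = 8), and its log2 fold change was 2.42 ± 0.31 (adjusted p = 6.1e-09). CBF1 was at 0.277 ± 0.328 CPM at the start and 3.31 ± 2.18 CPM on water, and CBF2 at 0.896 ± 0.789 and 5.74 ± 4.26 CPM, so that their starting levels were at or near the value of 3 counts. Of 10 further cold-regulated genes tested, 9 rose. Among them, RCI2A, a small membrane protein, changed by 2.44 ± 0.10 on the log2 scale and COR413PM1, another membrane protein, by 2.03 ± 0.11. Of 6 further dehydrins 2 could be tested, and HIRD11 rose from 1388 ± 118 to 2608 ± 168 CPM (adjusted p = 1.31e-18).

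Of the genes known chiefly as ABA targets, 4 of 7 could be tested. None of them was called, 1 had an unadjusted p under 0.05, DESeq2 called 1 of the 7 lower, and their median log2 fold change was 0.102. The dehydrin RAB18 had 24.0 ± 5.40 CPM at the start and 28.2 ± 8.61 CPM on water (log2 difference 0.24 ± 0.23, adjusted p = 0.509). Among the ABF factors, ABF1 rose from 6.28 ± 2.35 to 21.6 ± 3.57 CPM and ABF3 fell from 12.2 ± 3.79 to 5.18 ± 1.93 CPM, and the other 3 of 5 tested were not called. On ethanol against the start the lists gave 6 of 6 CBF and DREB2 factors, 9 of 10 further cold-regulated genes and 2 of 4 ABA targets higher.

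Several measures moved together with this comparison. The labels give an age of 14 days at the start of pretreatment for every group, so that the 6 days also add to the age of the water plants unless the groups were sown apart, and age and treatment cannot be told apart. All 7 tested clock genes were called, 5 higher and 2 lower. Of all tested genes 12% were called higher, and the share called lower is not given here. The morning genes CCA1 and LHY fell from 57.2 ± 3.68 to 7.03 ± 2.74 CPM and from 32.4 ± 4.31 to 1.99 ± 1.06 CPM. The evening genes PRR5 and ELF4 rose by 3.26 ± 0.15 and 3.74 ± 0.18 on the log2 scale. The summed root markers were at 65.1 to 126 CPM at the start and at 20.9 to 46.1 CPM on water, with PYK10, the 1 tested marker of 4, at -1.61 ± 0.25 on the log2 scale. Of the 4 green tissue markers 2 were higher and 1 lower, and their summed level overlapped between the groups. The part of clock phase and of the root signal in the rise of the 9 genes was not tested.

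The order of levels between genes depends on the scale, and it is given here as CPM per kilobase of transcript (mean ± SD, n = 8). At the start KIN2 stood first at 262 ± 33.4 and ERD14 second at 223.8 ± 21.3, and their intervals of mean ± SD overlapped. ERD10 followed at 96.1 ± 14.3, COR47 at 43.6 ± 6.96, COR15A at 32.4 ± 5.50, COR15B at 24.5 ± 2.37 and RD29A at 9.26 ± 1.70. LTI30 at 4.64 ± 1.38 and KIN1 at 2.85 ± 0.953 were lowest. The intervals of COR47 and COR15A, of COR15A and COR15B, and of LTI30 and KIN1 overlapped as well. Lasy-Seq primes at the poly(A) tail, so its counts may grow less with length than this scale assumes. In CPM without length ERD14 at 264 ± 25.1 stood above KIN2 at 197 ± 25.1, and the other 7 kept the order given.

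On water KIN2 reached 1809 ± 465 CPM per kilobase, well above ERD14 at 400 ± 50.7. COR15A at 254 ± 113 and COR15B at 253 ± 83.7 had moved from the fifth and the sixth place to the third and the fourth, but the intervals of both overlapped that of ERD10 at 188 ± 37.0, and that of COR15A also those of ERD14 and COR47. COR47 had 123 ± 24.5, RD29A 41.5 ± 16.4, KIN1 20.5 ± 7.72 and LTI30 18.9 ± 4.12, and the interval of KIN1 overlapped those of RD29A and LTI30. In the ethanol group and in both frozen groups KIN2 and ERD14 again held the first places per kilobase, and RD29A, LTI30 and KIN1 the last. In CPM without length, the means of COR15A at 645 ± 564 and COR15B at 575 ± 340 stood above ERD14 at 518 ± 120 in frozen ethanol plants. These intervals overlapped, and the means of the COR15 pair include frozen ethanol replicate 2, at 1968 and 1356 CPM. By median COR15A at 490 CPM was below ERD14 at 511, and COR15B at 539 was above it.

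Within the COR15 and the COR47 and ERD10 pairs, neighbours rose by different factors. The ratio of counts of 2 genes within a library does not depend on how libraries are scaled, and it was tested with two-sided exact permutation tests over 12870 arrangements, in a family of 18 tests chosen after the data were seen. At the start COR15B had 0.600 to 1.08 times the counts of COR15A (median 0.765), on water 0.832 to 1.45 times (median 1.07) and on ethanol 1.02 to 1.64 times (median 1.29). The log2 ratio was higher by 0.443 on water than at the start (exact permutation p = 0.00513, adjusted p = 0.0231) and by 0.737 on ethanol (exact permutation p = 0.000311, adjusted p = 0.00186). All 8 water and all 8 ethanol libraries were above the starting median, although the ranges overlapped.

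Of the dehydrin neighbours, COR47 rose more than ERD10. ERD10 had 1.31 to 1.97 times the counts of COR47 at the start (median 1.58), 0.912 to 1.24 times on water (median 1.07) and 0.777 to 1.09 times on ethanol (median 1.01). No water or ethanol library reached the lowest starting ratio. Against the start the log2 ratio changed by -0.524 on water and by -0.653 on ethanol (exact permutation p = 0.000155, the smallest the design allows, and adjusted p = 0.0014 for both). With freezing after ethanol both ratios changed in the opposite direction. The COR15B to COR15A ratio changed by -0.39 (adjusted p = 0.0313) and the ERD10 to COR47 ratio by 0.237 (adjusted p = 0.0438), but these tests missed the threshold in 6 and in 12 of the 16 fits that left out 1 library. After water the ERD10 to COR47 ratio changed by 0.08 with freezing (adjusted p = 0.523), and by 0.218 with each library's length trend removed (adjusted p = 0.042), where the value after ethanol was 0.35 (adjusted p = 0.0035).

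**Figure D4:**
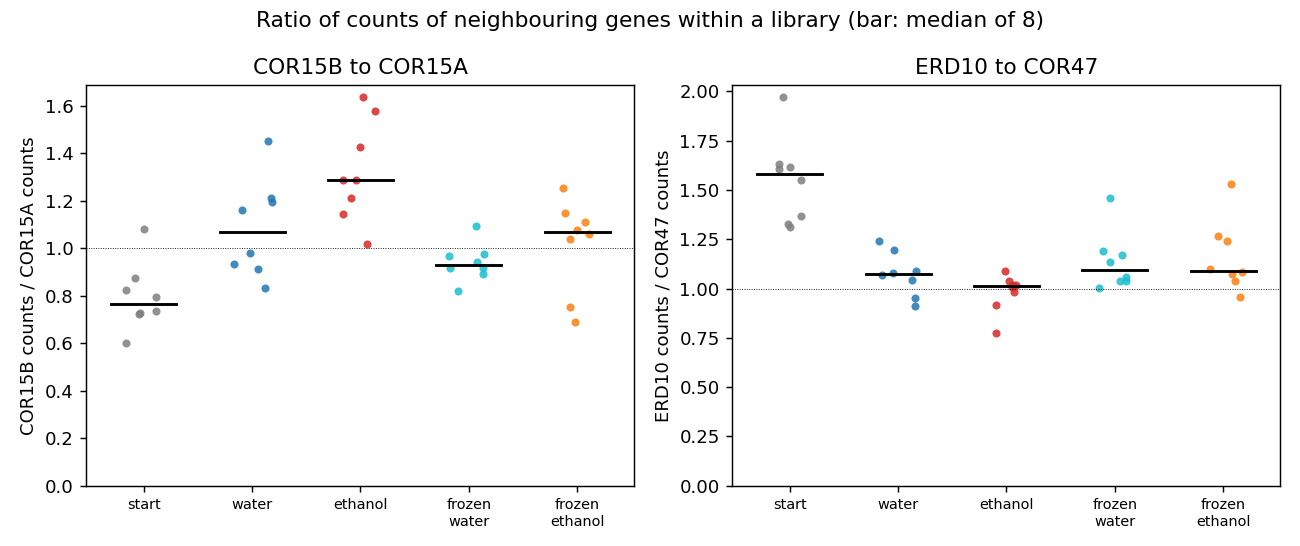
Counts of COR15B divided by those of COR15A (left) and of ERD10 divided by those of COR47 (right) in each of the 40 libraries, by group, with a bar at the median of 8 and a dotted line at 1. The median COR15B ratio goes from 0.765 at the start to 1.07 on water and 1.29 on ethanol, and the starting ERD10 ratios, from 1.31, lie above all water and ethanol ratios.

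Ethanol plants were next set against water plants, which asks what ethanol adds to the 6 days in wet pots. Before freezing 1 of 9 genes was called higher, the membrane-binding dehydrin LTI30, where 4.04% of all tested genes were. All 9 log2 fold changes were above 0, from 0.14 for COR15A to 0.84 for LTI30, with a median of 0.278 (0.0091 over all genes), and 4 had an unadjusted p under 0.05. The genes varied together from library to library, so their shared sign does not count as 9 separate results. LTI30 had 11.6 to 23.1 CPM on water and 19.3 to 66.0 CPM on ethanol, with medians of 18.3 and 28.2. The ranges overlapped, but all 8 ethanol libraries were above the water median. The log2 fold change was 0.84 ± 0.22 (adjusted p = 0.007). Without ethanol replicate 3, the highest library, it was 0.619 and the adjusted p 0.0551.

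ERD14 had the next smallest p before freezing. It ranged from 408 to 598 CPM on water and from 506 to 679 CPM on ethanol, with medians of 450 and 554, and all 8 ethanol libraries were above the water median. The log2 fold change was 0.28 ± 0.096 (adjusted p = 0.0528), which does not pass. For COR15A the difference was 0.14 ± 0.29, with a 95% interval of -0.416 to 0.702, and for KIN1 0.15 ± 0.28, with an interval of -0.396 to 0.696, which leaves room for changes of over 1.5-fold upwards.

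After freezing 3 of 9 genes were higher in ethanol plants than in water plants, where 2.41% of all tested genes were: COR15B, ERD14 and LTI30. All 9 log2 fold changes were above 0, from 0.33 to 0.90 with a median of 0.505 (-0.0114 over all genes), and 9 had an unadjusted p under 0.05. The share of all tested genes at such a p is not given here. The 9 genes varied together from library to library, so these are not 9 separate results. Frozen ethanol replicate 2 was the highest of its group, and frozen water replicate 1 the lowest of its group, for all 9. LTI30 had 9.22 to 37.1 CPM in frozen water plants (median 15.5) and 20.1 to 59.1 CPM in frozen ethanol plants (median 32.1). All 8 frozen ethanol libraries were above the frozen water median. The log2 fold change was 0.90 ± 0.22 (adjusted p = 0.00667), and it passed whichever library was left out, with adjusted p from 0.000419 to 0.0354.

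The other 2 calls after freezing were less stable. COR15B had 201.6 to 530 CPM in frozen water plants (median 350) and 261 to 1356 CPM in frozen ethanol plants (median 539), a log2 fold change of 0.72 ± 0.21 (adjusted p = 0.034, and 0.0784 with DESeq2). ERD14 had 320 to 487 CPM (median 399) and 347 to 705 CPM (median 511), a log2 fold change of 0.33 ± 0.096 (adjusted p = 0.029). Without frozen ethanol replicate 2 these became 0.411 (adjusted p = 0.263) and 0.261 (adjusted p = 0.113). COR15B lost its call in 8 of 16 fits that left out 1 library and ERD14 in 5 of 16, and the number of genes called ran from 1 to 7. It was 1 without frozen water replicate 1 or 7 or without frozen ethanol replicate 2 or 6, and 7 without frozen ethanol replicate 8.

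The mean of both ethanol effects, a contrast added after the data were seen, uses all 32 pretreated libraries. By it 5 of 9 genes were called higher, all but 1 of them dehydrins, where 6.94% of all tested genes were. LTI30 changed by 0.87 ± 0.15 on the log2 scale (adjusted p = 2.67e-05), COR15B by 0.58 ± 0.15 (adjusted p = 0.00441), COR47 by 0.34 ± 0.092 (adjusted p = 0.00696), ERD10 by 0.32 ± 0.11 (adjusted p = 0.0429) and ERD14 by 0.31 ± 0.068 (adjusted p = 0.000741). ERD10 lost its call with DESeq2 (adjusted p = 0.099) and in 18 of 32 fits that left out a library, and the other 4 kept theirs in all 32. COR15A at 0.46 ± 0.20, KIN1 at 0.42 ± 0.20, KIN2 at 0.32 ± 0.12 and RD29A at 0.40 ± 0.16 did not pass, with adjusted p from 0.0664 to 0.152. The values of COR15A, KIN1 and RD29A were nevertheless larger than those of the called COR47, ERD10 and ERD14, and so were their SE. The calls therefore do not show a larger effect in dehydrins as a class.

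Some of the listed cold genes were called for ethanol as well. Of the 10 further cold-regulated genes tested, 2 were higher and 1 lower on ethanol in each state. Among all tested genes 4.04% were higher before freezing and 2.41% after. Before freezing, none of the 6 CBF and DREB2 factors was called, with 1 at an unadjusted p under 0.05 and 0 called by DESeq2, and after freezing 2 were, CBF2 and CBF3. CBF3 had 15.7 ± 4.94 CPM in frozen water plants and 34.1 ± 20.4 CPM in frozen ethanol plants (log2 fold change 1.12 ± 0.24, adjusted p = 0.00223). CBF2 rests on frozen ethanol replicate 3, which had 85.9 CPM where the next library had 10.6: without it the log2 difference was 0.23 (adjusted p = 0.84), and that of CBF3 0.84 (adjusted p = 0.0195). HIRD11 was higher on ethanol in both states, by 0.28 ± 0.059 and 0.35 ± 0.059. COR27 and COR28, small cold-induced proteins tied to the clock, were higher on ethanol in both states as well, COR28 by 1.55 ± 0.19 before and 1.37 ± 0.20 after freezing, while the membrane protein gene RCI2B was lower, by -0.79 ± 0.20 and -0.99 ± 0.19. Of the 7 clock genes 3 were higher on ethanol before freezing and 1 after, ELF4 by 0.93 ± 0.14 and 0.81 ± 0.14, and their part in the ethanol calls was not tested.

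No change of the 9 genes with freezing at -4 °C was called within either pretreatment. After water 0 of 9 were called, where 14% of all tested genes were, and 1 had an unadjusted p under 0.05, ERD14 at -0.19 ± 0.096. After ethanol 0 of 9 were called, where 9.78% of all tested genes were, and 2 had an unadjusted p under 0.05, RD29A and COR15A. DESeq2 called 0 of 9 in both as well. The log2 fold changes ran from -0.31 to 0.39 after water and from -0.14 to 0.61 after ethanol, with medians of -0.066 and 0.088.

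The gene nearest to a call was ERD14 after water (adjusted p = 0.182) and RD29A after ethanol. RD29A had 47.3 to 174 CPM in water plants and 77.9 to 246 CPM in frozen water plants (medians 114 and 131). It had 74.0 to 248 CPM in ethanol plants and 110 to 424 CPM in frozen ethanol plants (medians 127 and 181). In each case 6 of 8 frozen libraries were above the unfrozen median, and the ranges overlapped. The log2 differences were 0.39 ± 0.23 (adjusted p = 0.28) and 0.61 ± 0.23 (adjusted p = 0.0766), and the second passed without ethanol replicate 3 (adjusted p = 0.017), without frozen ethanol replicate 7 (0.0407) or without frozen ethanol replicate 8 (0.0485).

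The mean freezing effect over both pretreatments, also added after the data were seen, was 0.50 ± 0.16 for RD29A (adjusted p = 0.0178). It was the 1 gene of 9 called higher, where 11.5% of all tested genes were. The call was lost without frozen ethanol replicate 2 (adjusted p = 0.0628) or frozen water replicate 3 (0.0505). RD29A has the longest transcript of the 9, at 2663 bases, and the libraries of frozen plants held relatively more counts of long transcripts. The slope of log2 CPM on log2 transcript length was 0.0804 to 0.236 in the frozen libraries and -0.175 to -0.021 in all others. With each library's length trend removed the mean freezing effect on RD29A was 0.286 (adjusted p = 0.341), and 0 of 9 genes were called. In the main fit ERD14 had the next smallest p, with a mean freezing effect of -0.17 ± 0.068 (adjusted p = 0.0671). ERD14 was called lower in 10 of 32 fits that left out 1 library.

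The intervals show what freezing effects remain possible. For COR47 the 95% interval of the log2 difference was -0.322 to 0.191 after water and -0.313 to 0.196 after ethanol. For KIN2 it was -0.596 to 0.081 and -0.411 to 0.264. For COR15A it was wider, at -0.615 to 0.505 and 0.018 to 1.13. The COR15A value after ethanol, 0.58 ± 0.28 (adjusted p = 0.217), ran from 0.0747 to 0.764 when 1 library was left out. The difference between both freezing effects was called for 0 of 9 genes (0.133% of all tested genes, either direction), with 0 at an unadjusted p under 0.05 and 0 by DESeq2. Its largest value was 0.63 ± 0.40 for COR15A (adjusted p = 0.739), which ran from 0.138 to 0.828 when 1 library was left out.

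Some of the listed cold genes were called with freezing. Of all tested genes, 14% were called after water and 9.78% after ethanol, in either direction. None of the 6 CBF and DREB2 factors was called after water, with 0 at an unadjusted p under 0.05 and 0 by DESeq2. After ethanol CBF2 was called higher, by 1.58 ± 0.45, and without frozen ethanol replicate 3 the value was 0.27 (adjusted p = 0.712). Of the 10 further cold-regulated genes 2 were lower after each pretreatment. COR413IM2, a chloroplast envelope protein, was one of them both times, at -0.32 ± 0.090 and -0.28 ± 0.088. HIRD11 was lower after water, by -0.20 ± 0.059. By the mean freezing effect over both pretreatments, 1 of the 10 further cold-regulated genes was higher and 4 were lower. Of all tested genes 11.5% were higher by that contrast, and the share that was lower is not given here. Of the green tissue markers 2 of 4 were lower in frozen plants after water and 3 of 4 after ethanol, and their summed level was 54100 to 67120 CPM in frozen plants against 63550 to 79360 CPM in unfrozen pretreated plants. The part of green tissue in these values was not tested.

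The 9 genes varied together from library to library within a group. With group means subtracted, Pearson's r of log2 CPM between 2 of the 9 genes over the 40 libraries ran from 0.376 for ERD14 with LTI30 to 0.956 for COR15A with COR15B (Spearman's rho 0.271 and 0.912). These libraries share the measurement, the depth and the scaling of each sample, so that r is a description. COR15A with RD29A had r = 0.943 and COR15A with KIN2 r = 0.931. KIN2 had the highest mean r with the other 8, at 0.834, and LTI30 the lowest, at 0.533, followed by ERD14 at 0.669. Leaving out frozen ethanol replicate 2 moved the lowest and the highest r to 0.300 and 0.943.

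**Figure D5:**
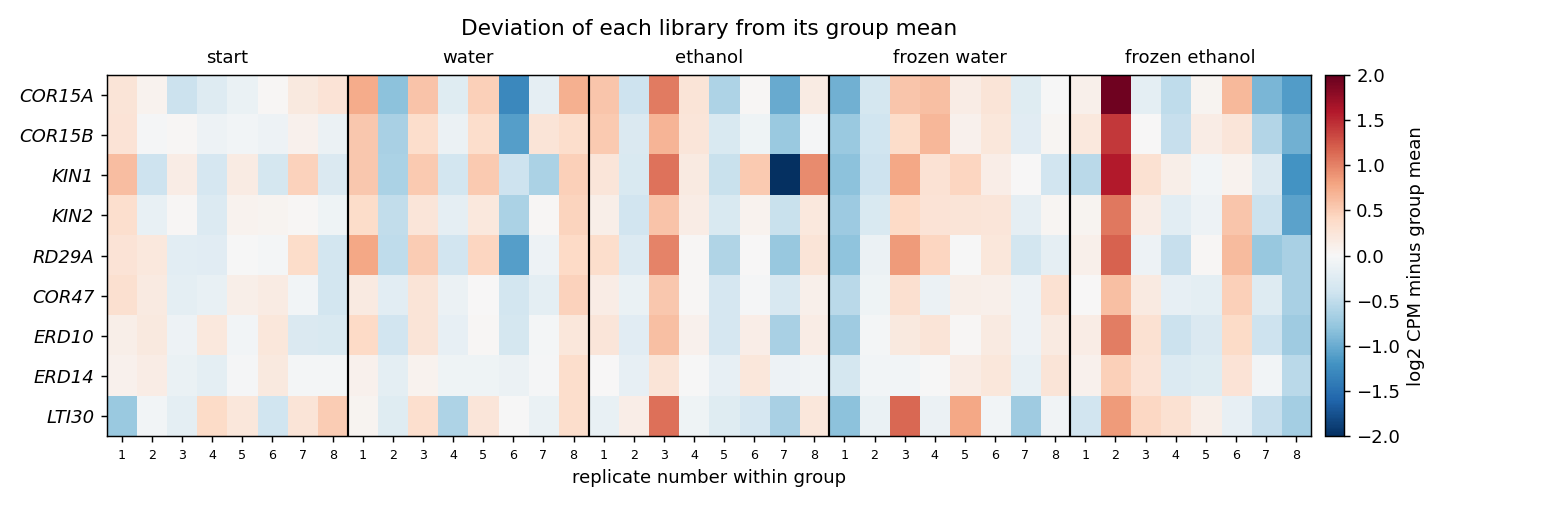
Log2 CPM of each library minus the mean of its group for the 9 genes (rows), with libraries ordered by group and replicate number, red above and blue below the group mean; colours end at 2 and -2. Frozen ethanol replicate 2 and ethanol replicate 3 are red, and frozen water replicate 1 is blue, for 9 of the 9 genes.

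Single libraries were therefore high or low for the whole set. The summed level of the 9 genes was 763 to 960 CPM at the start, 2131 to 4366 on water, 2774 to 5995 on ethanol, 1836 to 3792 in frozen water plants and 2091 to 8726 in frozen ethanol plants. Frozen ethanol replicate 2 and ethanol replicate 3 were the highest of their groups for 9 of 9 genes, and frozen water replicate 1 was the lowest for 9 of 9. Frozen ethanol replicate 8 was the lowest for 8 and ethanol replicate 7 for 7. The residual SD was 0.702 (log2) for KIN1, 0.676 for COR15A, 0.542 for RD29A, 0.507 for COR15B and 0.506 for LTI30, against a median of 0.353 over all tested genes. KIN2 at 0.415 and ERD10 at 0.374 were near that median, and COR47 at 0.304 and ERD14 at 0.216 were below it.

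The genes outside the set with the most similar pattern included COR413IM1, COR413PM1 and LEA14 from the list of cold-regulated genes. Over the 40 libraries the highest r with the mean of the 9 standardized levels was 0.98, for AT5G17460, annotated as a subunit of a glutamyl-tRNA amidotransferase. AT1G51090, annotated as a heavy metal transport protein, and COR413IM1 followed at 0.969, then AT4G30650 at 0.966, COR413PM1 at 0.962 and the annexin ANNAT1 at 0.955. With group means subtracted the order was COR413PM1 at 0.916, AT5G17460 at 0.903, RD20 at 0.901, LEA14 at 0.893, COR413IM1 at 0.891 and AT4G30650 at 0.88. Without the 2 libraries farthest from the median, frozen ethanol replicates 2 and 8, these were 0.82 to 0.882.

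RD20, a caleosin of lipid bodies, shows how both measures differ. It varied with the 9 genes inside groups, but its level was 36.8 CPM at the start and 18.7 CPM on water, where the 9 genes rose. Among the CBF factors, CBF3 had r = 0.727 inside groups (rho 0.732), CBF2 0.304 and CBF1 0.195. The DREB2 factors had 0.0431 to 0.331. ABF3 had 0.66, but the other tested bZIP factors had 0.377 (ABF1), 0.0853 (ABF2), -0.0158 (AREB3) and -0.251 (ABF4). Of the tested ABA targets RD22 had 0.711, RAB18 0.695, LTP3 0.585 and LTP4 0.253. Of the clock genes ELF4 had 0.581, LHY 0.272, CCA1 0.238 and PRR5 0.113, while PRR7 had 0.00243, TOC1 -0.00912 and GI -0.126.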

How the data were processed

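RNA from 40 shoot samples was measured with Lasy-Seq. Per the submitters' processing notes, bcl2fastq, Trimmomatic, HISAT2, featureCounts, DESeq2 and the TAIR10 build were used, with no versions or settings given. The deposited counts are whole reads per gene made by the authors. The authors also deposited a signal, which is the count divided by a size factor of the library (their product returned the count within 6e-08%), and it was checked but not tested. No column belonged to another sample. Library totals were 2098593 to 9211896 counts, and the CPM value of 3 counts reflects counting error only.

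Counts were fitted with edgeR 4.0.16 (quasi-likelihood, TMM scaling, filterByExpr, R 4.3.3) in 1 model of 40 libraries without a block. A gene was called at a Benjamini-Hochberg adjusted p under 0.05 over 16579 tested genes. All adjusted p-values of fold changes are from this test unless another tool is named, and each SE was obtained as the size of the log2 value over the root of its F statistic. CPM used the TMM-scaled totals. Ratios of counts within a library were compared by two-sided exact permutation tests (SciPy 1.17.1). Of 27416 identifiers, 26719 matched RefSeq's TAIR10.1 annotation, which gave positions, transcript lengths and sequence (Biopython 1.88). Genes outside the set were named as the 6 with the highest r with the 9 genes on each of 2 bases, or as members of the lists of dehydrins, CBF and DREB2 factors, bZIP factors, other cold-regulated genes, ABA targets, clock genes and tissue markers.

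The 9 genes, the lists and the tests were chosen with earlier results of these data known. The alternatives were RLE scaling, no filter, DESeq2 1.42.0, only the groups compared, a replicate block, organelle genes left out, a length trend removed, a test against a fold of 1.5, 2 libraries left out, the counts of the COR15 pair and of the KIN pair summed, and each library left out in turn. Replicate numbers were not used to pair the samples in the main fit. A fit with a replicate block and a check of same-number pairs are given below. No 2 replicates were as alike as counting noise alone would make them (chi-square per degree of freedom at least 3.48).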

Additional observations from a re-analysis of the deposited data

Results flagged for a closer look

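In 45 groups of 8 libraries (9 genes in 5 groups), 7 held a library far from the other 7 by Dixon's criterion on CPM. For normal and independent values chance flags about 1 group in 20, or 2.25 of 45. The 9 genes varied together within a library, so 1 library can give several flags, and 7 cannot be judged against 2.25. Frozen ethanol replicate 2 was 3 of the 7. It had 1968 CPM of COR15A where the next library of its group had 798.7, 1356 CPM of COR15B where the next had 602.2, and 57.49 CPM of KIN1 where the next had 23.57. This library was the highest of its group for all 9 genes, and COR15B and ERD14 lost their ethanol calls after freezing without it. LTI30 in ethanol replicate 3 had 65.97 CPM where the next had 35.79, and without this library LTI30 lost its call before freezing. ERD10 in frozen water replicate 1, the lowest library of its group for all 9 genes, had 184.2 CPM where the next had 281.3. The other 2 were ERD14 in water replicate 8, at 598.5 CPM against 496 in the next library, and COR15B in starting replicate 1, at 46.97 CPM against 40.92.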

How the results depend on the processing

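All 9 genes were called higher against the start, on water and on ethanol, under each alternative run. For ethanol against water before freezing, 2 genes in place of 1 were called with RLE scaling, with no filter, with organelle genes left out and with only the groups compared (ERD14 added, adjusted p 0.0495, 0.0464, 0.049 and 0.0167 by edgeR), and 0 were against a fold of 1.5. After freezing the count of 3 became 0 against a fold of 1.5 and 1 with only the groups compared. DESeq2 called 2 in place of 3, without COR15B (adjusted p = 0.0784), and COR15A and COR15B summed did not pass either (0.0653). The mean ethanol effect gave 0 in place of 5 against a fold of 1.5 and 4 with DESeq2, without ERD10 (0.099), while COR15A and COR15B summed passed (0.0315). The mean freezing effect gave 0 in place of 1 with the length trend removed and against a fold of 1.5. Without water replicate 6 and ethanol replicate 7 it gave 2, with ERD14 added as lower (-0.189, adjusted p = 0.0415 by edgeR). Leaving out 1 library gave 0 to 3 calls for ethanol before freezing, 1 to 7 after freezing, 4 to 7 for the mean ethanol effect, 0 to 1 for freezing after ethanol and 0 to 2 for the mean freezing effect. The signs that turned belonged to log2 values that were not called. The log2 fold change of LTI30, freezing after water, turned to -0.0638 with the replicate block and to -0.000373 with DESeq2, and ERD10 to -0.0389 without water replicate 6 and ethanol replicate 7. With the length trend removed, KIN2 turned to 0.094 for freezing after ethanol and to 0.0226 for the mean freezing effect, and KIN1 to 0.148 for the latter. The cause was not tested in these cases. The counts of a pair summed have the sign of COR15A or KIN2, against which KIN1 differs for freezing after ethanol (-0.0694 for the sum with KIN2) and COR15B for the mean freezing effect (0.101 for the sum with COR15A). Values that turned when 1 library was left out had these ranges. Ethanol before freezing gave -0.0512 to 0.247 for COR15A and -0.0132 to 0.267 for KIN1. Freezing after water gave -0.19 to 0.0449 for COR15A, -0.0405 to 0.0896 for ERD10 and -0.209 to 0.114 for LTI30. Freezing after ethanol gave -0.224 to 0.198 for COR15B, -0.139 to 0.394 for KIN1, -0.274 to 0.0399 for KIN2, -0.159 to 0.0304 for COR47 and -0.0747 to 0.299 for LTI30. The difference of freezing effects gave -0.0213 to 0.407 for COR15B, -0.00869 to 0.314 for KIN2, -0.0119 to 0.41 for RD29A, -0.0852 to 0.105 for COR47, -0.0149 to 0.14 for ERD14 and -0.0874 to 0.292 for LTI30. The mean freezing effect gave -0.227 to 0.0395 for KIN1 and -0.0634 to 0.156 for LTI30. For log2 ratios the ranges were -0.328 to 0.0506 for KIN1 to KIN2, ethanol against start, -0.138 to 0.0202 for KIN1 to KIN2, freezing after water, and -0.0314 to 0.0802 for ERD10 to COR47, ethanol against water after freezing. Of 80 pairs of libraries with the same replicate number, 2 had an r of deviations over 0.1 (median 0.00607, range -0.119 to 0.325), and the best of 8 partners had the same number in 33 of 160 cases, where 1 in 8 would by chance. With the replicate block COR15B after freezing was 0.674 (adjusted p = 0.0543) and ERD10 in the mean ethanol effect 0.283 (adjusted p = 0.0646), and no count of calls moved by over 1.5 times. Depth limits KIN1 and LTI30 most, which had 7 to 18 and 6 to 46 counts a library at the start.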

Other observations

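GOLS3, a galactinol synthase that provides substrate for raffinose, is another gene of the listed cold-regulated set. It had 4.64 ± 1.18 CPM at the start and 17.6 ± 8.64 CPM on water (mean ± SD, n = 8). Its r with the 9 genes, group means subtracted, was 0.838 over 40 libraries (rho 0.849, and 0.836 without the 2 farthest libraries). CBF1, CBF2 and CBF3 were all highest in frozen ethanol replicate 3, at 40.1, 85.9 and 75.7 CPM, where the next library of that group had 6.93, 10.6 and 51.3 CPM. The 9 genes were highest in replicate 2 of that group.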
